A study of Homo sapiens with 16 samples.

Results

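NEUROG1, NEUROG2, NEUROD1, NEUROD2, NEUROD4, NEUROD6, ATOH1, NHLH1 and NHLH2, 9 of the 57736 genes in the count table, encode the proneural and neuronal basic helix-loop-helix (bHLH) transcription factors described here. They were taken by name as a family, without a rule on their levels but with earlier results of these data known. RNA-seq libraries came from H9, an embryonic stem cell line of human origin, and were made before its differentiation to neural cells (day 0, D0) and after 12, 30 and 70 days of it (D12, D30 and D70). The cultures were differentiated by inhibition of both SMAD pathways followed by neural supplements. At each stage, 2 libraries came from cultures kept in 40 µM Thiamet-G (TMG), an inhibitor of O-GlcNAcase, the enzyme that removes the O-GlcNAc sugar from proteins, and 2 from control cultures kept in the solvent DMSO. The groups therefore are D0 control, D0 TMG, D12 control, D12 TMG, D30 control, D30 TMG, D70 control and D70 TMG. All 8 groups share the cell line and the differentiation protocol, and TMG was present throughout in the TMG groups. In 8 libraries, control replicate 2 and TMG replicate 1 of each stage, a separate treatment tag names the other arm than the title does. The titles were followed, with which the sample descriptions and the column names of the count table coincide, and each comparison of TMG with control depends on that choice, since by the tags the arms would be replicate 1 against replicate 2. Levels are CPM, the deposited counts scaled to the size of each library after TMM normalization.

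bHLH proteins of this class bind DNA as dimers with the widely present E proteins at a short motif called the E-box. Neurogenins act early, in dividing progenitors, where they start neuronal fate and switch on Notch ligands, and NeuroD factors follow in young neurons that leave the cycle. ATOH1 specifies neurons of the dorsal hindbrain, and NHLH1 and NHLH2 (also called NSCL1 and NSCL2) appear briefly in newborn neurons. Id proteins hold back the E proteins, and HES and HEY proteins, which Notch induces, repress proneural genes. In cortex, NEUROG2, NEUROD2 and NEUROD6 mark the lineage of excitatory neurons, while NEUROD1 and NEUROD4 are also known from the retina.

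The 250 bases upstream of the start of each gene's canonical transcript were read from GRCh37 and searched for the E-box CANNTG. Since CANNTG reads the same on both strands, each match was counted once. For NEUROD1, NEUROD2 and NHLH2 the window lies inside the gene's annotated span, since other transcripts start further upstream. Of the 9 promoters, 6 held an E-box, against 56.6% of the 19894 promoters searched. The form CAGATG or its complement CATCTG, which neurogenins and NeuroD factors are known to bind, was in the promoters of NEUROD2, NEUROD6, NHLH1 and NHLH2, and in 9.1% of all promoters. CATATG, which reads the same on both strands, was in those of NEUROD2 and ATOH1, and in 1.5% of all promoters. CAGCTG was in that of NEUROD4, and in 13.2% of all. NEUROG2, NEUROD2 and NEUROD6 varied together over the 16 libraries, with Pearson's r of log2 CPM from 0.75 to 0.89. Their promoters are shown with that of NHLH1, which alone passed a test by edgeR when all 16 libraries were used. They lie at chr4:113437337-113437586 (minus strand), chr17:37764174-37764423 (minus strand), chr7:31380341-31380590 (minus strand) and chr1:160336611-160336860 (plus strand) of GRCh37, and E-boxes are in capitals.
NEUROG2: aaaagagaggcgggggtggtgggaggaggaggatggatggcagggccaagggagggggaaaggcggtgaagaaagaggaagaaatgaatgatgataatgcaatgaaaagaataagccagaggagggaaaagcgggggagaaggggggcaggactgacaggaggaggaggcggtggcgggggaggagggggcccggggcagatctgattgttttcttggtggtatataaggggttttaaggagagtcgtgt
NEUROD2: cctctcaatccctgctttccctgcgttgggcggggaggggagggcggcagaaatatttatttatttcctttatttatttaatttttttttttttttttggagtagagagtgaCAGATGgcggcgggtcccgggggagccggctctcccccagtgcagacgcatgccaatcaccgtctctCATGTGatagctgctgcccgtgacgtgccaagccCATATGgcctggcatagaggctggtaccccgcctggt
NEUROD6: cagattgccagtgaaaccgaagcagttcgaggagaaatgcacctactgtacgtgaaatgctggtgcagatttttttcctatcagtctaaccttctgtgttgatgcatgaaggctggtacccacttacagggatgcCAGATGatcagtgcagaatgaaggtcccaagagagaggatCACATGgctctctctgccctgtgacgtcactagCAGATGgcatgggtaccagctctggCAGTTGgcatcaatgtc
NHLH1: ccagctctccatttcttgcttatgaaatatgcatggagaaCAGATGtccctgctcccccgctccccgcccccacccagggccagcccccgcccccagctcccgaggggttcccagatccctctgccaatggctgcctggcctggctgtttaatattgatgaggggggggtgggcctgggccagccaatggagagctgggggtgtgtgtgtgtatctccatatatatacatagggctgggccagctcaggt
The NEUROG2 window holds no E-box and that of NHLH1 holds 1, a CAGATG. Of the 3 in NEUROD2, 1 is a CAGATG, and the NEUROD6 window holds 4, of which 2 are CAGATG. A match describes these letters and is not evidence of binding.

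Library totals lay between 10334908 and 19836878 counts, so that a count of 0 allows a level of up to 0.147 to 0.291 CPM, depending on the library (3 counts, for counting error only). All 9 factors were in the low range and passed the filter on low counts, which left 24249 genes. NEUROD6 had 10 counts or more in 4 libraries and 0 in 9, and ATOH1 had 10 or more in 3 and 0 in 7. These genes passed through the few libraries in which they are high. NHLH1 had 10 counts or more in all 16 libraries. The study's methods call the replicates biological and say that the differentiation was repeated, without tying a library to a run, so p-values measure the spread between 2 libraries per group. In bulk RNA, fewer cells of a type and less RNA per cell cannot be told apart.

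**Figure D1:**
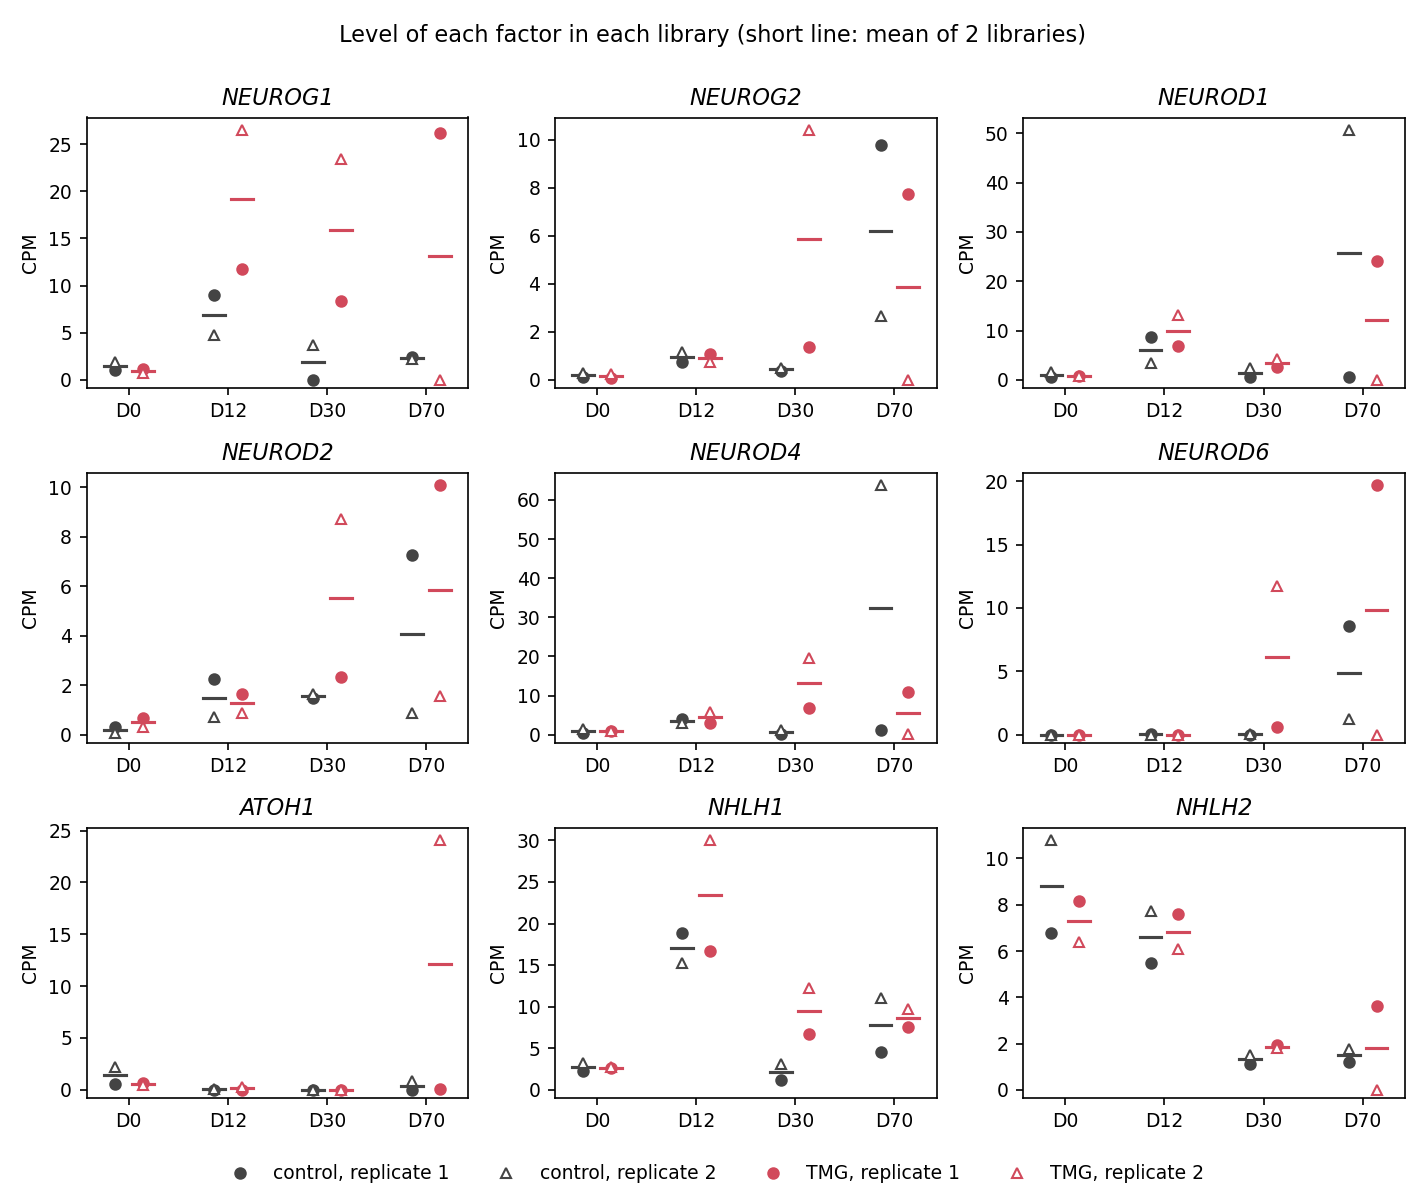
Level of each of the 9 factors in CPM (vertical axis, linear) in each of the 16 libraries by stage (horizontal axis). Grey stands for control and red for TMG, filled circles for replicate 1, open triangles for replicate 2, and a short line for the mean of the 2 libraries. On D30 both red symbols lie above both grey symbols for 8 factors, and on D70 the libraries of each arm lie far apart for most.

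The neurogenins stand at the top of the neuronal cascade. NEUROG1 (ENSG00000181965, 1 exon, chr5:134869972-134871654) was at 0.989 and 1.89 CPM in the control libraries of D0, listed in the order of replicates 1 and 2, and at 1.17 and 0.67 CPM in the TMG libraries. On D12 it was at 8.99 and 4.71 CPM in control and at 11.8 and 26.5 CPM in TMG. On D30 it was at 0 and 3.71 CPM in control and at 8.35 and 23.4 CPM in TMG, and on D70 at 2.44 and 2.17 CPM in control and at 26.2 and 0 CPM in TMG. NEUROG1 was thus higher in both TMG libraries than in both controls on D12 and D30, as 17.8% and 23.1% of all genes were. On D70 the TMG libraries lay on either side of the controls. TMG against control did not pass on D12 (log2 fold change 1.48, standard error 1.59, unadjusted p = 0.373 by edgeR). It did not pass on D30 either (3.02, standard error 1.71, adjusted p = 0.517 by edgeR). The change from D0 to D12 did not pass in control (log2 fold change 2.25, standard error 1.70, adjusted p = 0.392 by edgeR) or in TMG (4.38, standard error 1.84, adjusted p = 0.13 by edgeR).

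NEUROG2 (ENSG00000178403, chr4:113434672-113437336), the neurogenin of the dorsal forebrain, was under 0.3 CPM in all 4 libraries of D0, and between 0.737 and 1.15 CPM on D12 with the arms interleaved. On D30 it was at 0.376 and 0.502 CPM in control and at 1.36 and 10.4 CPM in TMG. By D70 it was at 9.77 and 2.66 CPM in control and at 7.74 and 0 CPM in TMG. In control its highest level was therefore on D70. In TMG the libraries of D30 and D70 overlapped, and replicate 1 was higher on D70 while replicate 2 was higher on D30. From D30 to D70 the control means differed by a log2 fold change of 3.78 (standard error 1.56), which did not pass (adjusted p = 0.231 by edgeR) and was 2.55 without D70 control replicate 1. Its exons share 92 bases with NEUROG2-AS1 on the opposite strand, and the library kit is not one that marks strand, but NEUROG2-AS1 was listed at no more than 0.395 CPM in any library.

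The NeuroD factors act after the neurogenins, in young neurons. NEUROD1 (ENSG00000162992, chr2:182533022-182545554) was at 0.494 and 1.54 CPM in control and at 0.755 and 0.773 CPM in TMG on D0. On D12 it was at 8.65 and 3.39 CPM in control and at 6.91 and 13.1 CPM in TMG, and on D30 at 0.47 and 2.31 CPM in control and at 2.53 and 4.16 CPM in TMG. On D70 it was at 0.579 and 50.7 CPM in control and at 24.2 and 0 CPM in TMG. Its D70 levels spanned from no count to its highest level in the series, with 1 high library in each arm. Exons of NEUROD1 and CERKL share 236 bases on the same strand, and CERKL was between 0.49 and 15.4 CPM, so a part of either count is uncertain.

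NEUROD4 (ENSG00000123307, chr12:55413758-55423801), a factor of retinal and spinal neurons, was between 0.371 and 1.47 CPM on D0 and between 2.9 and 5.72 CPM on D12. On D30 it was at 0.282 and 1.15 CPM in control and at 6.9 and 19.7 CPM in TMG, without overlap. On D70 it was at 1.16 and 63.8 CPM in control and at 10.9 and 0.0925 CPM in TMG. The control library of D70 that was high for NEUROD4 was the one that was high for NEUROD1. The change from D30 to D70 in control was 5.4 on the log2 scale (standard error 1.88, adjusted p = 0.172 by edgeR), and without D70 control replicate 2 it was 0.56.

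NEUROD2 (ENSG00000171532, chr17:37759789-37766030) and NEUROD6 (ENSG00000164600, chr7:31377079-31380340) mark maturing excitatory neurons of the cortex. NEUROD2 was between 0.0699 and 0.686 CPM on D0 and between 0.712 and 2.26 CPM on D12. On D30 it was at 1.5 and 1.66 CPM in control and at 2.33 and 8.71 CPM in TMG, and on D70 at 7.26 and 0.885 CPM in control and at 10.1 and 1.57 CPM in TMG. NEUROD6 had no count in any library of D0 and 1 count in the 4 libraries of D12. On D30 it was at 0 and 0.1 CPM in control (2 counts in all) and at 0.583 and 11.7 CPM in TMG (6 and 124 counts). On D70 it was at 8.61 and 1.21 CPM in control and at 19.7 and 0 CPM in TMG. Both genes were at their highest in replicate 1 of D70 in each arm. NEUROD6 was the last factor of the 9 to be detected in control: its ratio of D70 to D30 in control was 81.4, with a 95% counting interval of 22.1 to 678. Of the 149 counts on D70, 134 were in replicate 1, without which the ratio was 18.5 (interval 4.29 to 166), and between libraries the change did not pass (adjusted p = 0.287 by edgeR).

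ATOH1 (ENSG00000172238, 1 exon, chr4:94749904-94752115) had another course. It was at 0.556 and 2.24 CPM in control and at 0.618 and 0.464 CPM in TMG on D0, and at no more than 0.311 CPM on D12. It had no count in any of the 4 libraries of D30. On D70 it was at 0 and 0.805 CPM in control and at 0.079 and 24.1 CPM in TMG, where replicate 2 held 261 of the 338 counts of the gene in the series. The TMG group of D70 was at least 77.6-fold higher than that of D30 (262 counts against 0, set against 3 counts over the group), and this rests on 1 library.

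NHLH1 (ENSG00000171786, chr1:160336861-160342636), a factor of newborn neurons, was the most evenly measured of the 9. It was at 2.29 and 3.22 CPM in control and at 2.61 and 2.73 CPM in TMG on D0. On D12 it was at 18.8 and 15.3 CPM in control and at 16.7 and 30.1 CPM in TMG, above every library of D0. On D30 it was at 1.13 and 3.16 CPM in control and at 6.7 and 12.3 CPM in TMG, and on D70 at 4.56 and 11.1 CPM in control and at 7.51 and 9.71 CPM in TMG. The D12 levels were the highest of the series in both arms, and the D30 levels of the control libraries lay below all libraries of D12. NHLH2 (ENSG00000177551, chr1:116378998-116386538), its paralog, was between 6.39 and 10.8 CPM on D0 and between 5.5 and 7.72 CPM on D12, and between 1.13 and 1.94 CPM on D30. The D70 libraries held 1.22 and 1.77 CPM in control and 3.63 and 0 CPM in TMG. NHLH2 was thus the 1 factor whose means were highest on D0 in both arms.

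Levels can be compared between genes only per length. Per kb of the canonical transcript, the D12 control libraries held 7.36 and 5.97 CPM of NHLH1, 5.34 and 2.8 of NEUROG1, 3.47 and 1.36 of NEUROD1, and 2.19 and 3.07 of NHLH2. NHLH1 stood above the others in both libraries, while the ranges of NEUROG1, NEUROD1 and NHLH2 overlapped. NEUROD4 was at 1.03 and 0.739 CPM per kb, NEUROD2 at 0.746 and 0.235 and NEUROG2 at 0.321 and 0.501. On D30 in TMG, NEUROG1 was highest in both libraries, with 4.96 and 13.9 CPM per kb. NHLH1 had 2.62 and 4.81, NEUROD4 1.76 and 5.01, NEUROD6 0.298 and 5.99 and NEUROG2 0.593 and 4.54, and the ranges of these 4 overlapped. On D0 NHLH2 was at 2.54 to 4.29 CPM per kb in the 4 libraries, above all other factors, of which the highest was NHLH1 with 0.894 to 1.26.

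The question of how the factors changed as the cells differentiated was tested between consecutive stages within an arm. By edgeR's quasi-likelihood test with Benjamini-Hochberg adjustment over all genes, 1 of 9 factors, NHLH1, changed from D0 to D12 at a false discovery rate of 5% in control, where 16.7% of all genes did, and NHLH1 alone in TMG, where 16.4% did. NHLH1 rose by a log2 fold change of 2.63 (standard error 0.57, adjusted p = 0.0119 by edgeR) in control and of 3.13 (standard error 0.57, adjusted p = 0.00594 by edgeR) in TMG. From D12 to D30 NHLH1 fell in control (log2 fold change -2.95, standard error 0.57, adjusted p = 0.0223 by edgeR), again as 1 of 9 factors, with 3.6% of all genes called. In TMG the same step was -1.30 (standard error 0.54, adjusted p = 0.296 by edgeR), 0 of 9 factors passed, and 0.511% of all genes did. From D30 to D70, 0 of 9 factors passed in either arm, with 0.384% of all genes called in control and 0.00825% in TMG, while DESeq2 called NEUROD4 and NHLH1 in control, with 8.13% of its genes, and ATOH1 in TMG, with 1.75%. From D0 to D12 the fold changes of NEUROG2, NEUROD1, NEUROD2, NEUROD4 and NHLH2 on the log2 scale were 2.2, 2.57, 2.89, 1.92 and -0.41 in control and 2.37, 3.7, 1.37, 2.17 and -0.09 in TMG, none of which passed. NHLH2 differed by -2.31 from D12 to D30 in control (standard error 1.01) without passing (adjusted p = 0.229 by edgeR). Of the 12 fits of these NHLH1 changes with 1 library left out, in which the lone library is assumed to vary like the other groups, 4 kept the call, with adjusted p of 0.0429, 0.02, 0.0363 and 0.0458 by edgeR. The log2 fold changes stayed between 2.4 and 2.89 in control and between 2.64 and 3.49 in TMG for D12 against D0, and between -3.91 and -2.43 for D30 against D12 in control. The other 8 fits lost the call. From D0 to D12 in control the adjusted p was 0.0927 without D0 control replicate 1, 0.0526 without D0 control replicate 2 and 0.064 without D12 control replicate 1, and in TMG it was 0.0656 and 0.0595 without D0 TMG replicate 1 and 2. From D12 to D30 in control it was 0.111 and 0.103 without D12 control replicate 1 and 2 and 0.166 without D30 control replicate 1 (all by edgeR).

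The question of whether raised O-GlcNAc changed the factors was tested between TMG and control at each stage. On D30, 8 of 9 factors were higher in both TMG libraries than in both control libraries, where 23.1% of all genes were. The exception was ATOH1, which had no count at that stage. The median log2 fold change of the 8 factors with counts was 2.56, and that of all 24249 genes was 0.0113. By edgeR, 0 of the 9 passed at a false discovery rate of 5%, and 0% of all genes did. At an unadjusted p under 0.05, 4 of 9 were called, all higher with TMG, against 12% of all genes. They were NHLH1, NEUROG2, NEUROD4 and NEUROD6, and DESeq2 called 1 of the 9, NHLH1, at a false discovery rate of 5% (adjusted p = 0.0168), along with 3.22% of the genes to which it gave an adjusted p. With no filter on low counts edgeR called only NHLH1 at an unadjusted p under 0.05 (6.62% of all genes). At that threshold DESeq2 called NHLH1, NEUROG2 and NEUROD4 (7.44% of its 43143 genes) but not NEUROD6 (unadjusted p = 0.111 by DESeq2). From the 4 libraries of D30 alone, edgeR called NEUROD2 in place of NEUROD6 (12.5% of the genes tested). When libraries were blocked by replicate number, edgeR called NEUROD2 in place of NEUROD4 (20.1% of all genes), and 0.961% of all genes passed at a false discovery rate of 5%, none of them a factor. The study had singled out 7 of the factors on these same libraries, so their direction on D30 is not independent evidence.

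NHLH1 had a mean of 9.5 ± 3.96 CPM (SD, n = 2) with TMG on D30 and of 2.14 ± 1.44 CPM (SD, n = 2) in control. The log2 fold change was 2.11 (standard error 0.56, adjusted p = 0.22 by edgeR) and stayed between 1.59 and 3.07 when each D30 library was left out. NEUROG2 was at 5.89 ± 6.4 against 0.439 ± 0.089 CPM (SD, n = 2 each), a log2 fold change of 3.7 (standard error 1.56, adjusted p = 0.385 by edgeR), which was 1.59 without D30 TMG replicate 2. NEUROD4 was at 13.3 ± 9.04 against 0.718 ± 0.617 CPM (SD, n = 2 each), a log2 fold change of 4.11 (standard error 1.79, adjusted p = 0.401 by edgeR), which was 3.17 without that library. NEUROD6 had 130 counts with TMG against 2 in control, a ratio of 95.3 with a 95% counting interval of 25.8 to 795 (adjusted p = 0.415 by edgeR), and 124 of the counts came from that same library, replicate 2, without which the ratio was 8.91 (interval 1.59 to 90.3). Both left-out ratios of NEUROD6 were added after the data were seen. NEUROG1 differed by 3.02 (standard error 1.71, adjusted p = 0.517 by edgeR), with 2.09 to 3.58 when any library but control replicate 2 was left out. Without that library its control is at 0 counts and the fit gives no usable fold. In that fit NEUROG1 is counted below as called, although it was not among the factors called with all libraries. NEUROD2 differed by 1.80, or by 0.56 without TMG replicate 2 (standard error 1.11, adjusted p = 0.562 by edgeR with it). NEUROD1 differed by 1.2 (standard error 1.86, adjusted p = 0.86 by edgeR), with 0.53 to 2.81 when each library was left out. NHLH2 differed least, by 0.49 (standard error 1.02, adjusted p = 0.905 by edgeR).

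TMG replicate 2 was the higher of the TMG libraries of D30 for 7 of the 8 factors, NHLH2 being the exception. The neuron markers summed to 807 and 1100 CPM in the TMG libraries of D30 and to 504 and 647 CPM in control, with 10 of 10 markers at 1 CPM or more in each. The mesenchyme markers summed to 5480 and 29300 CPM in TMG and to 4340 and 5090 CPM in control, so replicate 2 of TMG stood apart there, and 5 or 6 of 6 were at 1 CPM or more. The pluripotency marker POU5F1 was at 9.13 and 5.49 CPM with TMG and at 0.094 and 0.401 CPM in control, while the 6 pluripotency markers summed to 82.5 and 28.3 CPM with TMG and to 59.3 and 31.9 CPM in control. The progenitor markers summed to 2430 and 3480 CPM in TMG and to 2560 and 2790 CPM in control, most of it VIM at 1700 and 2920 against 1700 and 2010 CPM. PAX6 was at 246 to 446 CPM and SOX1 at no more than 0.376 CPM in the 4 libraries, while SOX2 was lower in both TMG libraries, at 69.3 and 38.0 CPM against 124 and 157 CPM in control. The sensory neuron and neural crest markers summed to 69.8 and 63.8 CPM with TMG and to 26.2 and 38.1 CPM in control, with POU4F1 at 7.87 and 5.02 against 0.188 and 0.602 CPM, and 5 of 5 at 1 CPM or more in TMG. The retina markers summed to 209 and 171 CPM with TMG and to 134 and 201 CPM in control, with CRX at 17.4 and 18.3 against 1.6 and 5.47 CPM. The cortical projection neuron markers summed to 79.3 and 177 against 73.3 and 114 CPM. The part of these cells in the levels of the factors was not tested. Without D30 TMG replicate 2, 1 of 9 factors was called at an unadjusted p under 0.05, and 4.44% of all genes. The count was also 1 without D30 control replicate 1 (6.38% of all genes) and 2 without D30 control replicate 2 (9.32%), and it stayed at 4 without D30 TMG replicate 1 (17.8%), counts made after the data were seen.

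**Figure D2:**
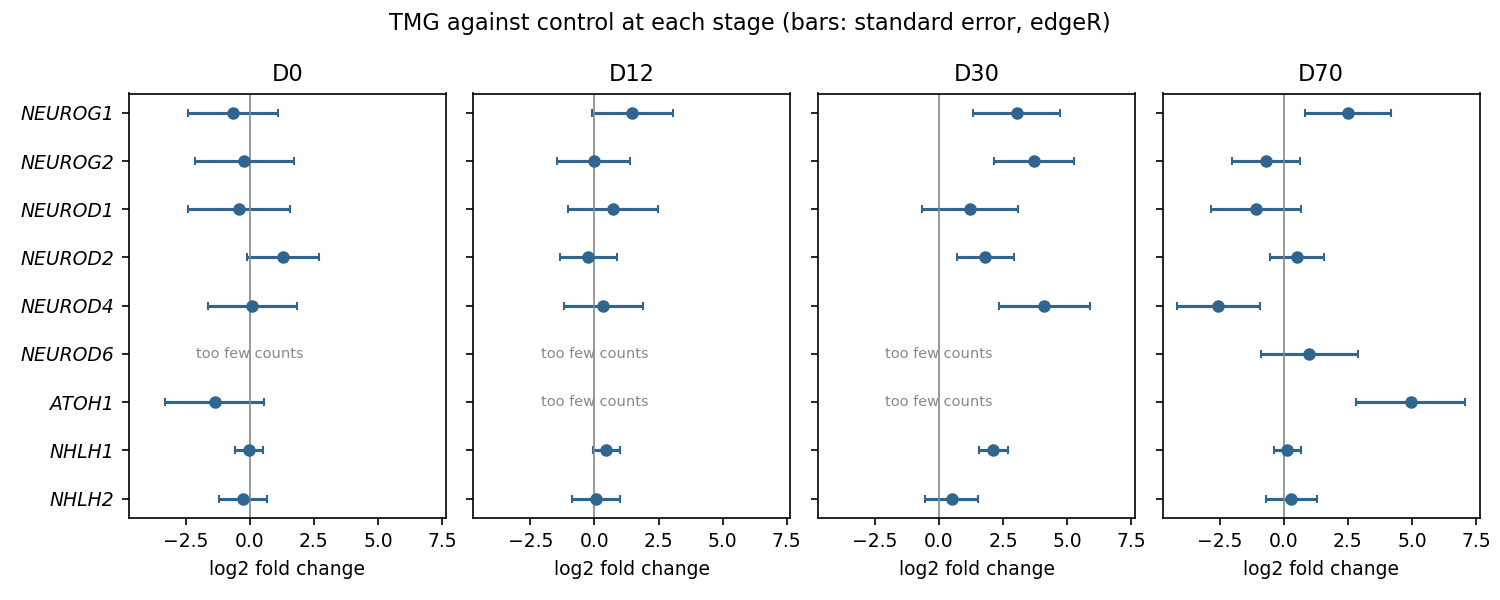
Log2 fold change of TMG over control (horizontal axis) for each factor (vertical axis) at D0, D12, D30 and D70, from edgeR, where points are estimates from 2 against 2 libraries and bars are standard errors. Comparisons in which a group had 3 counts or fewer are marked as too few counts. On D30 all 7 points lie to the right of 0, from 0.49 for NHLH2 to 4.11 for NEUROD4, while at the other stages points lie on both sides.

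At the other stages the factors did not move to one side. On D0 the medians of the 8 factors other than NEUROD6 and of all genes were -0.24 and -0.00208, and on D12 they were 0.401 and 0.00276. Both TMG libraries were above both controls for 1 of 9 factors on D0, NEUROD2 (a TMG library and a control library both round to 0.309 CPM), against 19.7% of all genes, and for 1 of 9 on D12, NEUROG1, against 17.8%. On D70 this held for 0 of 9 factors and for 9.77% of all genes. At a false discovery rate of 5%, edgeR called 0 of 9 factors and 0% of all genes on each of D0, D12 and D70, and DESeq2 called 0 of 9 factors and 0.0116%, 0.0525% and 0.214% of its genes. At an unadjusted p under 0.05 edgeR called 0 of 9 on D0 (1.26% of all genes), 0 of 9 on D12 (2.48%) and 1 of 9 on D70 (5.49%). That 1 was ATOH1, with a log2 fold change of 4.95 (standard error 2.13, adjusted p = 0.902 by edgeR), which turned to -2.16 without D70 TMG replicate 2. The other log2 fold changes on D70 were 2.5 for NEUROG1, -0.68 for NEUROG2, -1.08 for NEUROD1, 0.52 for NEUROD2, -2.55 for NEUROD4, 1.0 for NEUROD6, 0.14 for NHLH1 and 0.3 for NHLH2.

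Whether the TMG effect itself differed between stages was tested as a difference of the effects. The TMG effect of NHLH1 on D30 exceeded that on D12 by 1.65 on the log2 scale (standard error 0.76), and that of NEUROG2 by 3.73 (standard error 2.09). None of the 9 differences between D12 and D30 passed by edgeR (0% of all genes), and 0 of 9 had an unadjusted p under 0.05, against 3.41% of all genes. The TMG effect of D70 minus that of D30 was -6.66 for NEUROD4 (standard error 2.41) and -1.97 for NHLH1 (standard error 0.77). These were the 2 of 9 at an unadjusted p under 0.05, against 4.03% of all genes, and by edgeR 0 passed at a false discovery rate of 5% (0% of all genes). DESeq2 called 0 of 9 in both, with 0.0962% and 0.114% of its genes. When libraries were blocked by replicate number, the difference between D70 and D30 was -5.94 for NEUROD4 (unadjusted p = 0.171 by edgeR), which ended that call. For NHLH1 it was -1.96 with the block (unadjusted p = 0.00777 by edgeR). Without D70 control replicate 2 the difference was -1.85 for NEUROD4 and -1.16 for NHLH1, and neither was called at an unadjusted p under 0.05. Both calls were also lost without D30 control replicate 1 (-6.07 and -1.45) and without D30 TMG replicate 2 (-5.72 and -1.47), and that of NHLH1 without D70 TMG replicate 1 (-1.78).

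The D70 libraries differed from one another in which factors they held. D70 control replicate 2 held NEUROD1 at 50.7 CPM and NEUROD4 at 63.8 CPM. It also held the retina markers RAX at 95.9, CRX at 45.6, ATOH7 at 23.3 and RCVRN at 11.1 CPM, with 5 of 5 retina markers at 1 CPM or more. The fifth, OTX2, was lower there, at 122 CPM, than in the replicate 1 libraries of control and TMG, at 184 and 217 CPM. D70 TMG replicate 1 had 4 of 5 retina markers at 1 CPM or more, with CRX at 18.3 and ATOH7 at 6.48 CPM, beside NEUROD1 at 24.2 and NEUROD4 at 10.9 CPM. RAX went the other way, at 2.84 CPM in D70 TMG replicate 1 and at 7.91 CPM in D70 control replicate 1. That control library had 3 of 5 retina markers at 1 CPM or more, beside NEUROD1 at 0.579 and NEUROD4 at 1.16 CPM. The retina markers summed to 197 and 298 CPM in control and to 245 and 1.11 CPM in TMG. In both replicate 1 libraries most of the sum was OTX2. RCVRN was at no more than 0.555 CPM in each of the other 15 libraries. D70 control replicate 1 and D70 TMG replicate 1 held NEUROG2, NEUROD2 and NEUROD6 together with TBR1, a transcription factor of deep-layer cortical neurons, at 49.0 and 31.7 CPM, whereas TBR1 was at 3.86 CPM in control replicate 2 and at 0.0925 CPM in TMG replicate 2.

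D70 TMG replicate 2 held ATOH1 and NHLH1 and no more than 1.57 CPM of any other factor. In this library the progenitor gene PAX6 was at 2.5 CPM and OTX2, a forebrain and midbrain gene, at 0.0925 CPM, against at least 306 and 122 CPM in the other D70 libraries. POU4F1 was at 36.8 CPM and ISL1 at 19.6 CPM, both genes of sensory neurons, and DCX, a marker of young neurons, was at 14.2 CPM against at least 152 CPM in the others. The midbrain and hindbrain markers summed to 23.8 CPM there and to between 12.9 and 119 CPM in the others, and the sensory neuron and neural crest markers to 61.0 CPM there and to between 26.5 and 76.9 CPM in the others. Of that list PRPH was at 0.555 CPM there, against at least 9.5 CPM in the others, and SOX10 was at 1.29 CPM.

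The mesenchyme markers summed to 45000 and 58900 CPM in the replicate 2 libraries of D70 control and D70 TMG and to 7330 and 3670 CPM in the replicate 1 libraries. The neuron markers summed to 561 and 236 CPM in replicate 2 and to 1210 and 1270 CPM in replicate 1. Both splits run by replicate number. The cortical projection neuron markers summed to between 94.6 and 147 CPM in the 4 libraries, the highest sum being that of TMG replicate 2, where BCL11B alone was at 131 CPM. The part of these differences between libraries in the D70 comparisons of TMG with control was not tested.

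**Figure D3:**
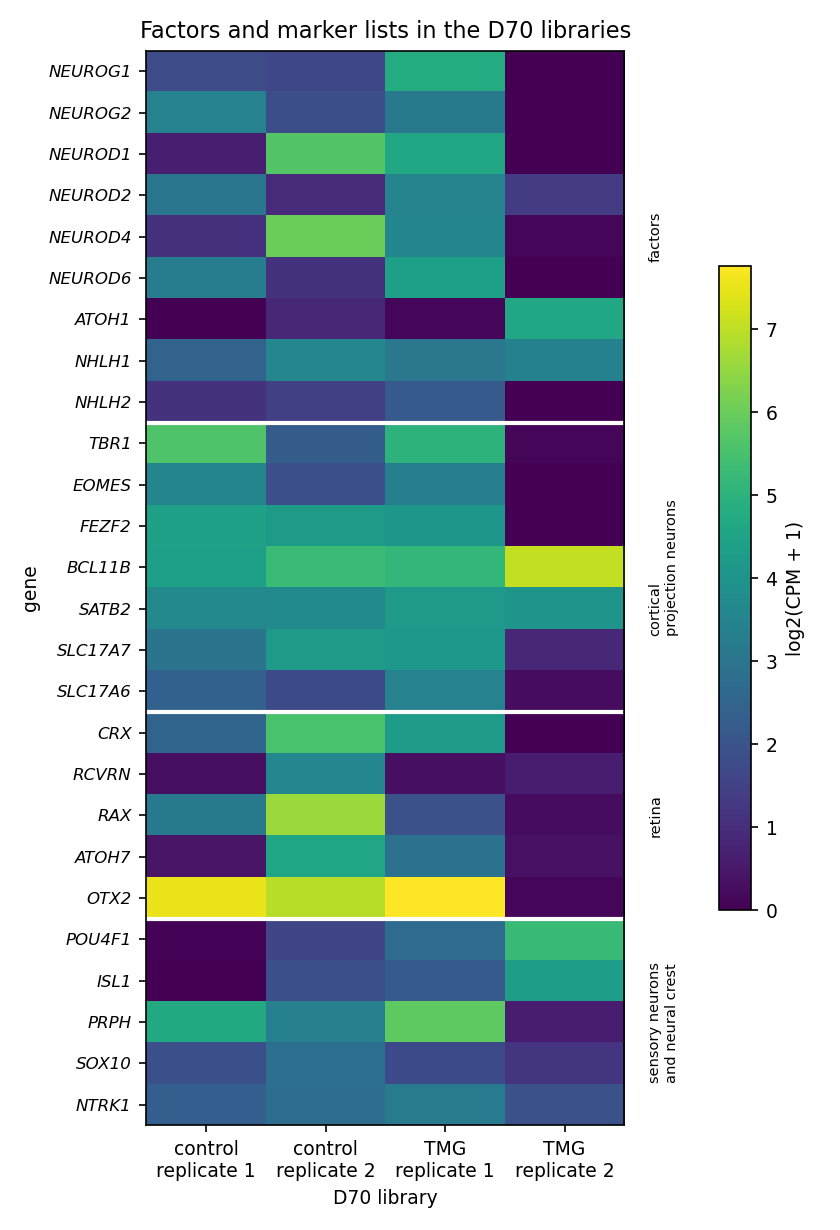
Level of the 9 factors and of 3 marker lists (vertical axis) in the 4 libraries of D70 (horizontal axis), as log2(CPM + 1) by colour from dark (0) to yellow. The control library of replicate 2 is bright for NEUROD1, NEUROD4 and the retina markers, both replicate 1 libraries for TBR1 with NEUROG2, NEUROD2 and NEUROD6, and the TMG library of replicate 2 for ATOH1 and POU4F1.

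The factors were compared by Pearson's r of log2 CPM over the 16 libraries, as a description of libraries that share stages and depth. NEUROD1 was most like NEUROD4 (r = 0.90), and NEUROG2 was most like NEUROD6 (r = 0.89), followed by NEUROD2 with NEUROD6 (r = 0.80) and NEUROG1 with NEUROD1 (r = 0.76). Over the 12 libraries without D70, NEUROD1 and NHLH1 reached r = 0.95, and NEUROG1 reached 0.90 with each of NEUROD1, NEUROD4 and NHLH1. Over all 16 libraries NEUROD1 and NHLH1 had r = 0.59. ATOH1 had an r below 0 with each of the other 8 factors, down to -0.59 with NEUROG2, but over the 12 libraries without D70 its r with NHLH2 was 0.69.

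**Figure D4:**
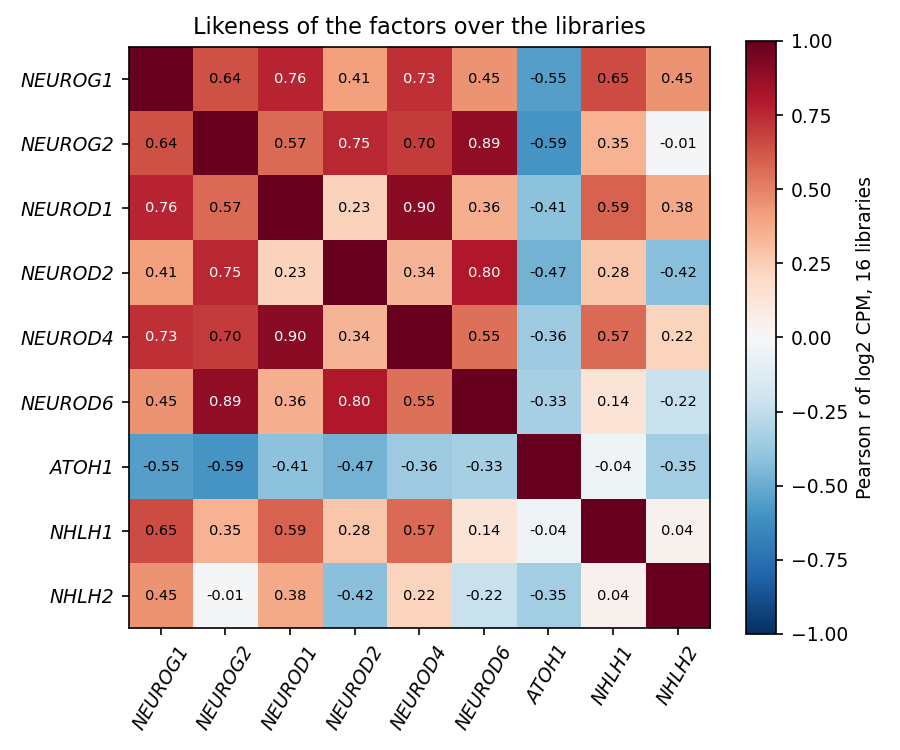
Pearson's r of log2 CPM between each pair of factors over the 16 libraries (both axes list the factors, red for positive and blue for negative, the value in each cell). NEUROD1 pairs with NEUROD4 at 0.90, NEUROG2 with NEUROD6 at 0.89, and the row of ATOH1 is below 0 throughout.

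Of all named genes tested, those with the pattern most like a factor were found by the same r. For NEUROG2 they were APC2 (r = 0.963), CELF3 (0.935) and TTC9B (0.932), of which CELF3 encodes an RNA-binding protein of neurons. For NEUROD6 they were CIB4 (0.966), LINC01088 (0.963) and DGKI (0.948), and for NEUROG1 LINC01456 (0.899), the somatostatin gene SST (0.889) and the vesicular glutamate transporter gene SLC17A6 (0.888). For NEUROD1 they were the ion channel gene ASIC4 (0.906), ONECUT3 (0.866) and the retinoid receptor gene RXRG (0.861). For NEUROD4 they were GNB3 (0.907), a transducin subunit of photoreceptors and bipolar cells, ST18 (0.891) and POU4F2 (0.882), a factor of retinal ganglion cells. POU4F2 was at 10.5 CPM in D70 control replicate 2, the library with the retina markers, and at 2.33 and 1.8 CPM in the TMG libraries of D30. For NEUROD2 they were GALNT10 (0.916), DSTYK (0.909) and LRRC37A3 (0.905), and for ATOH1 XKRX (0.924), TDRD10 (0.921) and NBEAL2 (0.909). For NHLH1 they were FLCN (0.924), HYI (0.914) and SCML4 (0.908), and for NHLH2 ZNF620 (0.955), CECR2 (0.946) and MTMR9LP (0.933). Some of these genes were near 0 throughout: CIB4 reached 0.964 CPM at most, SCML4 0.934, LINC01456 1.23 and TDRD10 1.66. NEUROD6 and ATOH1 had 0 counts in 9 and 7 libraries, so their r rests on few libraries.

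Genes of the same pathway were followed in lists written from general knowledge, with earlier results of these data known. Of these lists 34 genes were tested. By edgeR 0 of them passed at a false discovery rate of 5% for TMG against control on D30. The same held for D30 against D12 in control. The E proteins TCF3, TCF4 and TCF12 are the dimer partners of the factors, and none was under 101 CPM in any library. On D30 TCF12 was at 127 and 271 CPM with TMG and at 115 and 112 CPM in control (log2 fold change 0.81, standard error 0.30, adjusted p = 0.326 by edgeR). TCF4 differed by 0.56 and TCF3 by 0.17 on D30. From D12 to D30 in control TCF3 differed by -0.61, TCF12 by -0.52 and TCF4 by -0.05.

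The Id genes, inhibitors of the E proteins, were between 39.0 and 176 CPM in the libraries of D30, and none of ID1, ID2, ID3 and ID4 separated the arms there. On D30 ID2 differed by 0.76 (standard error 0.59), ID4 by -0.51 and ID3 by 0.31. Between D12 and D30 in control ID3 differed by -1.11, ID4 by 0.42 and ID2 by -0.29. Of the 6 Notch effectors, 2 were higher and 2 lower in both TMG libraries of D30 than in both controls, where 23.1% of all genes were higher and 21% lower, and the median log2 fold change was -0.0357. HEY2 was at 1.17 and 5.96 CPM with TMG and at 0.376 and 0.251 CPM in control (log2 fold change 3.52, standard error 1.37, adjusted p = 0.349 by edgeR), HEY1 differed by 1.49 and HES5, the main Notch target of neural progenitors, by -1.38. Between D12 and D30 in control HEYL differed by -3.64, HES4 by -1.45 and HEY2 by -2.34.

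Of 14 genes known downstream of neurogenins and NeuroD factors, 9 were higher and 4 lower in both TMG libraries of D30 than in both controls (23.1% and 21% of all genes), and 5 were higher at an unadjusted p under 0.05 (12% of all genes were called in either direction). The median log2 fold change was 1.05. ELAVL4, an RNA-binding protein of young neurons, was at 9.42 and 14.5 CPM with TMG and at 1.69 and 1.81 CPM in control (log2 fold change 2.76, standard error 0.74, adjusted p = 0.22 by edgeR). INSM1, a zinc finger factor of newborn neurons, was at 18.2 and 45.5 against 4.6 and 7.38 CPM (log2 fold change 2.40, standard error 0.71, adjusted p = 0.25 by edgeR). The somatostatin receptor gene SSTR2 was at 3.89 and 7.95 against 1.22 and 1.56 CPM (log2 fold change 2.08, standard error 0.60, adjusted p = 0.245 by edgeR). The Notch ligand gene DLL1 lay the other way, at 31.2 and 13.4 CPM with TMG and at 54.9 and 50.4 CPM in control, while DLL3 was at 9.23 and 17.7 against 1.88 and 4.37 CPM. Both ligands were named after their values were seen. From D12 to D30 in control ELAVL4 differed by -1.60, TBR1 by 3.37 and DCX by 1.94, none of which passed.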

How the data were processed

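The authors aligned reads of rRNA-depleted RNA to hg19 with Bowtie2 and deposited, for 57736 Ensembl genes (GRCh37), the estimated counts of RSEM 1.2.12, which are whole numbers and not normalized. The 16 libraries held 10334908 to 19836878 counts, so precision is limited by the spread between 2 libraries per group and, for NEUROD6 and ATOH1, by low counts. The library kit named does not mark strand. Libraries were grouped by title, and all columns belong to a sample of the series.

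Counts were analysed with edgeR 4.0.16 in R 4.3.3: TMM normalization, filterByExpr over the 8 groups (minimum count 10, minimum total 15), 1 mean per group, a robust quasi-likelihood fit with 8 residual degrees of freedom and the two-sided F-test. P-values were adjusted by Benjamini-Hochberg over the 24249 genes tested, with calls at 5%. The standard error is the log2 fold change divided by the square root of F. Log2 CPM for correlations used a prior count of 2. Ratios with few counts have exact 95% counting intervals, and a group at 0 was set to 3 counts over the group.

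Promoters and gene models are from GRCh37. Levels of all 9 factors are given at each stage, and fold changes only for a part of them in some comparisons, although the rule set was to name all 9 in each. From the pathway lists (E proteins, Id inhibitors, Notch effectors, other neural bHLH factors, downstream genes), the 3 with the lowest p for TMG on D30 and for D30 against D12 in control are named, and for each factor the 3 genes with the highest r. The factors and lists were chosen with earlier results of these data known. Marker lists (pluripotent cells, neural progenitors, neurons, cortical projection neurons, retina, midbrain and hindbrain, sensory neurons and neural crest, mesenchyme) describe the cultures. A few genes of these lists are not reported here.

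Alternatives were DESeq2 1.42.0 (no filter on low counts but its own, shares being of genes with an adjusted p), RLE normalization, no filter, a replicate block, the 4 libraries of a stage alone and each library left out. Tables used Python 3.11.15, pandas 2.3.3, numpy 2.4.6, scipy 1.17.1 and matplotlib 3.10.9.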

Additional observations from a re-analysis of the deposited data

How the results depend on the processing

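The results of single factors followed here were those at an unadjusted p under 0.05 in the main edgeR fit. The comparison of TMG with control on D30 was added for every factor but ATOH1. Over these 22 results and their 192 alternatives, 178 kept their direction and their side of the threshold. Of the rest, 8 calls were lost and 5 gained, and 1 direction turned, that of ATOH1 on D70 (-2.16 without D70 TMG replicate 2). Most of the 22 did not pass in the main fit, so keeping their side of the threshold does not show a stable size. NEUROD4 from D30 to D70 in control went from 5.4 to 0.56 without D70 control replicate 2. NEUROD2 on D30 went from 1.8 to 0.56 without D30 TMG replicate 2. All 8 lost calls were of NHLH1 between stages with 1 library left out. DESeq2 gained NHLH1 on D30, NEUROD4 and NHLH1 from D30 to D70 in control and ATOH1 from D30 to D70 in TMG, and ATOH1 was also called there without D70 TMG replicate 1. The causes were not tested. Depth limits NEUROD6 and ATOH1, which are near 0 counts in most libraries.

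The count of factors at an unadjusted p under 0.05 on D30 was 4, 1 with no filter, and 1 to 4 with a library left out. The counts of all genes moved more. For TMG against control, DESeq2 called 5, 11, 595 and 52 genes from D0 to D70 at a false discovery rate of 5%, where edgeR called 0, and with no filter edgeR called 1, 0, 21 and 3. Leaving out a library gave 0 on D0 and D12, 0 to 217 on D30 and 0 to 801 on D70, the highest without TMG replicate 1 at both stages. At an unadjusted p under 0.05 the 4 libraries of a stage alone gave 1032 genes on D0, 1312 on D12 and 163 on D70, and leaving out a library gave 130 to 810, 311 to 689, 1076 to 4315 and 1400 to 5096 from D0 to D70.

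Between stages in control, leaving out a library gave 1125 to 1890 genes from D0 to D12, 0 to 227 from D12 to D30 and 0 to 189 from D30 to D70, and in TMG 872 to 1749, 0 to 189 and 3 to 1639. DESeq2 called 2461 and 1705 in the later steps in control and 1135 and 367 in TMG, and no filter gave 331 genes from D30 to D70 in control, 227 from D12 to D30 and 21 from D30 to D70 in TMG. For the difference of TMG effects of D30 and D12 DESeq2 called 17 and no filter 1, and for D70 and D30 they called 24 and 3, with 0 to 385 when a library was left out.

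The replicate numbers were not taken to pair the libraries, since the labels tie them to no shared culture and the differences between replicates correlated between the arms at 0.045 on D0. They correlated at 0.367, 0.223 and 0.607 from D12 to D70, so libraries of 1 number did deviate together at those stages. With the replicate block, the TMG comparisons had 615, 1476, 4877 and 2899 genes at an unadjusted p under 0.05 from D0 to D70, and at a false discovery rate of 5% 233 on D30 and 1 on D70, and 184 genes were called from D30 to D70 in control. With the block NHLH1 on D30 had an adjusted p of 0.0532 by edgeR, over alternatives from 0.0168 to 1.0, and no call on a factor at a false discovery rate of 5% changed. At an unadjusted p under 0.05 on D30 the block lost NEUROD4 and gained NEUROD2, and it lost the difference of NEUROD4 effects between D70 and D30.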

Other observations

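Other neural bHLH factors, 7 of 11 of which were tested, were also followed in these libraries. On D30, 3 of the 7 were higher in both TMG libraries than in both controls, where 23.1% of all genes were, and 0 passed a false discovery rate of 5% or an unadjusted p under 0.05 by edgeR (0% and 12% of all genes). ATOH8 was at 7.48 and 29.8 CPM with TMG and at 5.83 and 6.62 CPM in control on D30 (log2 fold change 1.58, standard error 0.88, adjusted p = 0.507 by edgeR). BHLHE22, a factor of cortical and retinal neurons, was at 1.94 and 5.3 CPM with TMG and at 0.094 and 0.602 CPM in control (log2 fold change 3.22, standard error 1.64, adjusted p = 0.466 by edgeR). OLIG3 had 2 counts in the 4 libraries of D30, all in TMG replicate 2. Between D12 and D30 in control OLIG1 went from 2 and 1 counts to 4 and 42 (adjusted p = 0.0836 by edgeR), so that 1 library holds most of them, OLIG3 from 9 and 2 counts to none (adjusted p = 0.111 by edgeR), and FERD3L from 2 and 8 counts to 0 and 1 (adjusted p = 0.306 by edgeR), none of which passed.

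ATOH7, the bHLH factor that retinal ganglion cells need, was at no more than 1.33 CPM in the 12 libraries of D0 to D30. On D70 it was at 0.321 and 23.3 CPM in control and at 6.48 and 0.277 CPM with TMG, the same order of libraries as for NEUROD1 and NEUROD4 in control. OLIG2, NEUROG3, BHLHE23 and TAL2 were at no more than 1.05 CPM in any library.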
